A study of Homo sapiens with 12 samples.

Results

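The DNAJ family, also called Hsp40, comprises the genes whose symbols begin with DNAJA, DNAJB or DNAJC followed by a number and at most 1 further letter. The table of 23686 genes held 45 of them, 4 in class A, 13 in class B and 28 in class C. RNA sequencing had been run on MDA-MB-231, an established line from a breast cancer, and on HCT116, an established line from a colon cancer. Each line had a group given control IgG, a group given IgG and 100 µM hydrogen peroxide (H2O2, an oxidant) for 8 h, and a group given the anti-Hsp60N antibody and the same H2O2. Each of these 6 groups had 2 libraries. The 12 libraries all came from cells that had received an immunoglobulin, and no group received the antibody without H2O2. The lines were grown in different media, both with 10% serum, so line and medium cannot be told apart. The labels do not say whether a group's libraries are separate cultures. The p-values therefore measure only how these libraries vary, which may be technical. Expression is given as TPM (a transcript abundance scaled for transcript length and for the library's total), and the read depth behind it is unknown.

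DNAJ proteins share the J domain, a helical module whose conserved histidine, proline and aspartate motif contacts Hsp70 and stimulates its ATPase, so that Hsp70 closes on a client protein. Class A members also carry a glycine and phenylalanine rich region and a zinc finger, class B members carry the glycine and phenylalanine rich region without the zinc finger, and class C members share the J domain alone. Different members bring Hsp70 to the cytosol, the lumen and membrane of the endoplasmic reticulum (ER), the mitochondrial import motor, the ribosome, the splicing machinery and clathrin-coated vesicles. Several cytosolic members are textbook targets of heat shock factors, and several ER members are targets of the unfolded protein response.

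Promoter stretches of 5 cytosolic members are shown because they hold the heat shock letters described here. DNAJA1 and DNAJB1 among them had decreases among the largest of the family under H2O2 in HCT116. So did DNAJB5, which has no such match. RefSeq promoters (GRCh38.p14) were found for 40 of the 45 members, as 52 windows of 250 bases before a transcription start. A heat shock element of 3 alternating units, GAANNTTCNNGAA or TTCNNGAANNTTC, stood in 155 of all 35116 promoters (0.44%) and in 1 member promoter, that of DNAJB6. The shorter pair of units, GAANNTTC or TTCNNGAA, stood in 11.58% of all promoters and in 7 of the 52 member promoters (13.5%), which belong to DNAJA1, DNAJA4, DNAJB1, DNAJB4, DNAJB6, DNAJB7 and DNAJC15. The members' share is near that of all promoters, and the stretches of DNAJB7 and DNAJC15 are not shown. The pair is contained in the longer element and was added to the search after the first results were seen. Whether these letters bear on the changes under H2O2 was not tested. Both strands were searched, and a match describes letters only, not a bound site. Below, each stretch runs 5′ to 3′ along the gene's strand, with the matched letters in capitals.
DNAJA1, chr9:33025055-33025102, plus strand: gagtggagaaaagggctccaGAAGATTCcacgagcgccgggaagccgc
DNAJA4, chr15:78264451-78264537, plus strand: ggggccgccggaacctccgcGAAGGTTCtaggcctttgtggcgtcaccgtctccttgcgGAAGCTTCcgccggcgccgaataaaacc
DNAJB1, chr19:14518417-14518494, minus strand: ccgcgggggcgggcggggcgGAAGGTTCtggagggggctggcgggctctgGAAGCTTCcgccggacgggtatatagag
DNAJB4, chr1:78004821-78004868, plus strand: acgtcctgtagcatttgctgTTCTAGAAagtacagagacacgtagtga
DNAJB6, chr7:157336853-157336905, plus strand: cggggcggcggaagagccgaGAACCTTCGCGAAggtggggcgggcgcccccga
Of these genes, DNAJA1 and DNAJB1 fell under H2O2 in HCT116, whereas DNAJA4, DNAJB4 and DNAJB6 did not pass the test there. DNAJA2, DNAJB5 and DNAJC7, cytosolic members that also fell, are not among the genes with a match. For DNAJC7 none of the motifs searched was found, and it may be 1 of the 5 members without a promoter window.

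The other motifs were searched in the same promoters, so 1 promoter can hold several. The ER stress element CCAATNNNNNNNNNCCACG stood in 26 of all promoters (0.07%) and in 0 of the 52 member promoters. The CCAAT box, which that element contains, stood in 32.01% of all promoters and in 22 of the 52 (42.3%), which belong to 17 members, DNAJB9 among them. The antioxidant element TGACNNNGC stood in 10.91% of all promoters and in 4 of the 52, those of DNAJA2, DNAJB6, DNAJC10 and DNAJC11. The ATF4-type element TGATGNAA stood in 3.14% of all promoters and in 1 of the 52, that of DNAJA4.

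Each library had 12411 to 12653 genes at 1 TPM or more. Across genes, the correlation of libraries was 0.994 to 0.996 within groups (6 pairs) and 0.787 to 0.796 between lines (36 pairs). Between groups of the same line it was 0.985 to 0.995 (24 pairs), which overlaps the range within groups. The summed TPM of 8 epithelial markers was 6059 to 6402 in HCT116 and 1847 to 2092 in MDA-MB-231, and that of 8 mesenchymal markers was 342 to 378 and 3242 to 3759. The 5 immune markers summed to at most 7.04 TPM, with CD14 highest at 6.46, and the 6 fibroblast or endothelial markers to at most 12.9 TPM. None of these markers was at 0 in every library.

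The family was expressed across a wide range in both lines, and its most abundant member was DNAJA1, which encodes a class A partner of cytosolic Hsp70. DNAJA1 stood at 555.53 and 571.89 TPM in the IgG libraries of MDA-MB-231 and at 744.95 and 694.95 TPM in those of HCT116. It supplied 23.6% ± 0.249 (SD, n = 2) of the family's summed TPM in MDA-MB-231 and 24.9% ± 0.568 in HCT116. In class B the most abundant member over all libraries was DNAJB6, which encodes a suppressor of polyglutamine aggregation. It held 13.3% ± 0.0535 of the family's TPM in MDA-MB-231 under IgG and 4.21% ± 0.138 in HCT116. Within HCT116, DNAJB1 led class B instead, with 12.4% ± 0.282 of the family's TPM under IgG, against 6.31% ± 0.0488 in MDA-MB-231. In class C it was DNAJC9, which encodes a co-chaperone of histones H3 and H4, with 163 to 225 TPM over the 12 libraries. At the other end, DNAJB3, DNAJB7, DNAJB8, DNAJB13 and DNAJC5B stayed at or below 0.49 TPM in every library. DNAJC5G, a relative of the vesicle protein DNAJC5, was listed at 0 in all libraries of MDA-MB-231 and at 0.46 to 1.06 TPM in HCT116. These 6 members, among them all 4 of the list of mostly testis or cilia genes, did not reach 1 TPM in at least 2 libraries and were not tested, which left 39 members of 13956 genes tested.

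Which members differed between the lines was asked of the IgG libraries. Under IgG, 18 of the 39 members were higher in HCT116 and 12 lower, by limma at a Benjamini-Hochberg adjusted p under 0.05 over all genes. The 18 include DNAJA4 and DNAJC12, which reached the level needed for testing in HCT116 alone. Among all genes tested, 45.5% were called higher and 37.3% lower, so the members' counts lie near this background. The median log2 fold change over all genes was 0.11. After median-of-ratios scaling it was -0.01, and then 17 members were called higher and 14 called lower. All fold changes are on the log2(TPM + 1) scale, which understates changes of genes with low values.

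The widest gap between the lines was that of DNAJA4, which encodes a cytosolic class A member. It stood at 83.10 and 85.30 TPM in HCT116 and at 0.10 and 0.23 TPM in MDA-MB-231 (log2 6.19). DNAJA4 passed the filter on low values through HCT116 alone, as did DNAJC12. Both therefore had to differ, and their gaps are given as levels and not as a test result. DNAJC12, a class C member that associates with aromatic amino acid hydroxylases, stood at 5.53 and 4.04 TPM in HCT116 and at 0.13 and 0 in MDA-MB-231 (log2 2.43). DNAJC22, which encodes a membrane protein, stood at 21.78 and 23.64 TPM in HCT116 and at 1.55 and 1.58 in MDA-MB-231 (log2 3.21, SE 0.10, limma adjusted p = 8.8e-11). DNAJC2, the ribosome-associated member, stood at 94.05 and 88.26 against 32.25 and 34.75 TPM (log2 1.42, SE 0.08, limma adjusted p = 1.47e-08). DNAJB1, the main stress-inducible member of the cytosol, stood at 357.63 and 355.86 against 146.47 and 154.73 TPM (log2 1.24, SE 0.05, limma adjusted p = 1.3e-09). For DNAJC22, DNAJC2 and DNAJB1 the HCT116 libraries lay above those of MDA-MB-231 without overlap. Here and below, a lack of overlap between groups of 2 libraries describes the values and is no further test. The share of all genes without overlap was not counted.

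In the other direction, DNAJB6 stood at 126.72 and 116.54 TPM in HCT116 and at 308.46 and 324.16 TPM in MDA-MB-231 (log2 -1.37, SE 0.05, limma adjusted p = 4.83e-10). DNAJB5, a relative of DNAJB1, stood at 5.95 and 5.86 against 14.88 and 14.28 TPM (log2 -1.17, SE 0.08, limma adjusted p = 1.34e-07). DNAJC15, of the mitochondrial inner membrane, stood at 12.20 and 11.19 against 27.44 and 26.62 TPM (log2 -1.14, SE 0.07, limma adjusted p = 2.08e-08). All 3 were lower in each HCT116 library than in either library of MDA-MB-231. The ER membrane members DNAJC18, at 1.94 and 1.99 against 4.48 and 5.23 TPM (log2 -0.98), and DNAJC1, at 21.47 and 19.92 against 39.95 and 42.95 TPM (log2 -0.97), followed the same order. All 4 class A members were higher in HCT116, though DNAJA4 among them had to be. Of the 9 tested class B members 3 were higher and 5 lower. The 26 tested class C members hold the rest of the 18 higher and 12 lower calls. Over all genes tested, 45.5% were called higher and 37.3% lower. With so few genes in classes A and B, these counts are no result about a class.

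**Figure D1:**
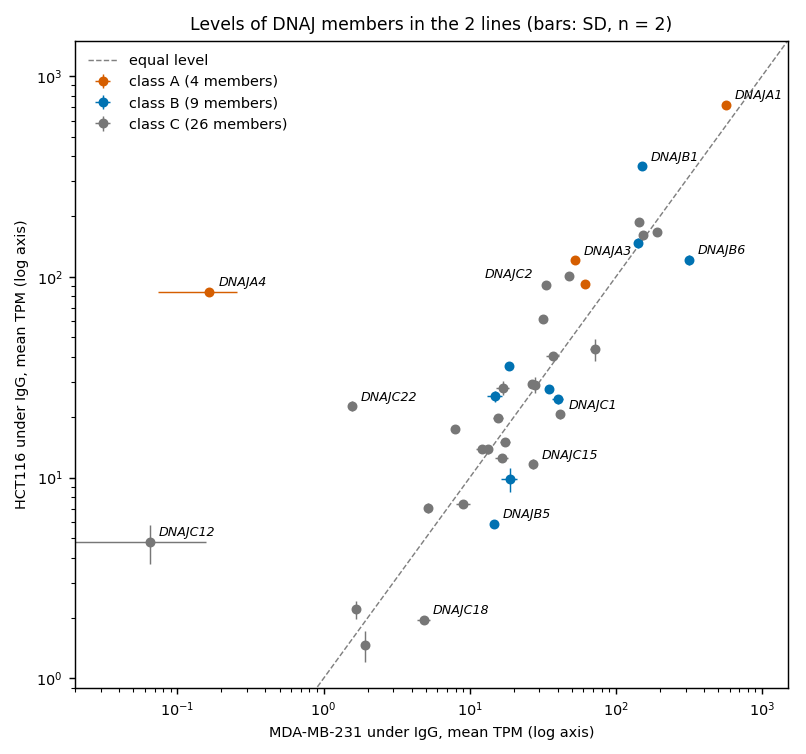
Mean TPM of the 39 tested members under IgG in MDA-MB-231 (x axis, log scale) and HCT116 (y axis, log scale), colored by class, with bars for the SD of 2 libraries and a dashed line at equal levels. DNAJA4, DNAJC22 and DNAJC12 stand far above the line, DNAJB6, DNAJB5 and DNAJC15 below it, and the bar of DNAJC12 runs past the left edge because 1 of its libraries in MDA-MB-231 is at 0.

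In HCT116, DNAJA1, DNAJB1 and DNAJB5 of the cytosol had the largest decreases with H2O2, and DNAJB9 of the ER the largest increase. There, 3 of the 39 members were higher and 7 lower in the H2O2 libraries than in the IgG libraries, by limma at an adjusted p under 0.05. Of all genes tested, 15.4% were called higher and 17.5% lower, so the family's counts, like its median log2 fold change of -0.02 against -0.01 for all genes, do not stand apart as a whole. The summed TPM of all 45 members went from 2888 ± 76.0 (SD, n = 2) to 2392 ± 24.7, and that of class A from 1018 ± 38.1 to 718 ± 1.22. In MDA-MB-231 the sums were 2386 ± 74.1 under IgG and 2537 ± 5.85 under H2O2. In bulk RNA, fewer cells of a kind and less RNA per cell cannot be told apart.

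Of the 9 members on the list of Hsp70 folding co-chaperones of cytosol and nucleus, all tested, 5 fell and 1 rose in HCT116 under H2O2 (median log2 fold change -0.25). Over all genes tested, 15.4% were called higher and 17.5% lower. DNAJA1 stood at 744.95 and 694.95 TPM under IgG and at 445.20 and 457.71 TPM under H2O2 (log2 -0.67, SE 0.05, limma adjusted p = 6.06e-06), and its share of the family's TPM went from 24.9% to 18.9%. DNAJB1 stood at 357.63 and 355.86 TPM under IgG and at 242.83 and 230.81 TPM under H2O2 (log2 -0.59, SE 0.05, limma adjusted p = 2.12e-05). DNAJB5, at a much lower level, stood at 5.95 and 5.86 and then at 3.30 and 4.01 TPM (log2 -0.57, SE 0.08, limma adjusted p = 0.000633). All 3 genes were lower in both H2O2 libraries than in either IgG library. DNAJC7, which binds Hsp70 and Hsp90 through tetratricopeptide repeats, stood at 165.55 and 156.57 and then at 126.98 and 142.61 TPM (log2 -0.26, SE 0.06, limma adjusted p = 0.00789). Without the first H2O2 library DNAJC7 no longer passed (adjusted p = 0.0671), nor did it in a fit of HCT116 alone (adjusted p = 0.0569). DNAJA2, a class A refolding co-chaperone, stood at 93.58 and 91.50 and then at 80.13 and 78.21 TPM (log2 -0.22, SE 0.05, limma adjusted p = 0.00651), again without overlap.

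The member of that list that rose was DNAJB2, whose product carries ubiquitin-interacting motifs and passes clients to the proteasome. It stood at 26.69 and 28.65 TPM under IgG and at 32.54 and 32.36 TPM under H2O2 (log2 0.22, SE 0.06, limma adjusted p = 0.0191), without overlap. This call was lost without the first IgG library (adjusted p = 0.103), the first H2O2 library (adjusted p = 0.0777) or the second H2O2 library (adjusted p = 0.0716). DNAJA4, with 83.10 and 85.30 and then 75.88 and 65.35 TPM (log2 -0.25, limma adjusted p = 0.0599), and DNAJB4, with 36.44 and 35.14 and then 31.11 and 31.43 TPM (log2 -0.19, limma adjusted p = 0.109), did not pass. For DNAJB6 the log2 fold change was -0.02.

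The list of ER members had 11 genes, all tested, of which 2 rose and 0 fell in HCT116 under H2O2 (median 0.13). With 15.4% of all genes called higher, 2 of 11 is near the background and is no result about ER members as a group. DNAJB9, whose product works with the ER Hsp70 BiP and holds the sensor IRE1 in check, stood at 10.83 and 8.90 TPM under IgG and at 17.70 and 17.63 TPM under H2O2 (log2 0.79, SE 0.12, limma adjusted p = 0.000696). DNAJC1, a J protein of the ER membrane that binds ribosomes, stood at 21.47 and 19.92 and then at 25.76 and 26.64 TPM (log2 0.33, SE 0.07, limma adjusted p = 0.00645). Both genes were higher in each H2O2 library than in either IgG library. The other ER members ranged from -0.15 for DNAJB11, the BiP co-chaperone of the lumen (unadjusted p = 0.0416, limma adjusted p = 0.101), to 0.19 for DNAJC18, and none passed. DNAJC3, which inhibits the kinase PERK, had a log2 fold change of -0.13, and DNAJC10, a disulfide reductase, 0.16.

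Mitochondrial and nuclear members were each represented by 1 gene that fell. With 17.5% of all genes called lower, 1 of 7 on each list is near the background. DNAJC11, a mitochondrial member tied to cristae organization, stood at 98.99 and 103.78 TPM under IgG and at 84.13 and 83.28 TPM under H2O2 (log2 -0.27, SE 0.05, limma adjusted p = 0.00205). It was the 1 of the 7 mitochondrial members that passed (list median -0.05), and DNAJA3, the class A member of the matrix, had a log2 fold change of -0.05. DNAJC8, which associates with the splicing machinery, stood at 193.48 and 181.94 and then at 149.95 and 157.50 TPM (log2 -0.29, SE 0.05, limma adjusted p = 0.0013). Neither gene's groups overlapped. The list of ribosome, nucleus and RNA members had 1 gene of 7 higher, DNAJC1, which also stands on the ER list, and 1 lower, DNAJC8. Of the 7 members of vesicles and endosomes, 5 were tested and 0 passed by limma, and none reached an unadjusted p under 0.05. The 29 members that did not pass ranged from -0.28 for DNAJC17 to 0.26 for DNAJC12, with 13 above 0. Of 4 J-domain genes with other names, GAK, the auxilin-related kinase, was lower (log2 -0.23) and SEC63, of the ER translocon, higher (log2 0.23). GAK lost its call in 2 of 21 alternatives, without the second IgG library or without the second H2O2 library. SEC63 lost its call in 14 of 21. Among these were both other pseudocounts, no filter, quantile normalization, HCT116 fitted alone and the replicate block.

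**Figure D2:**
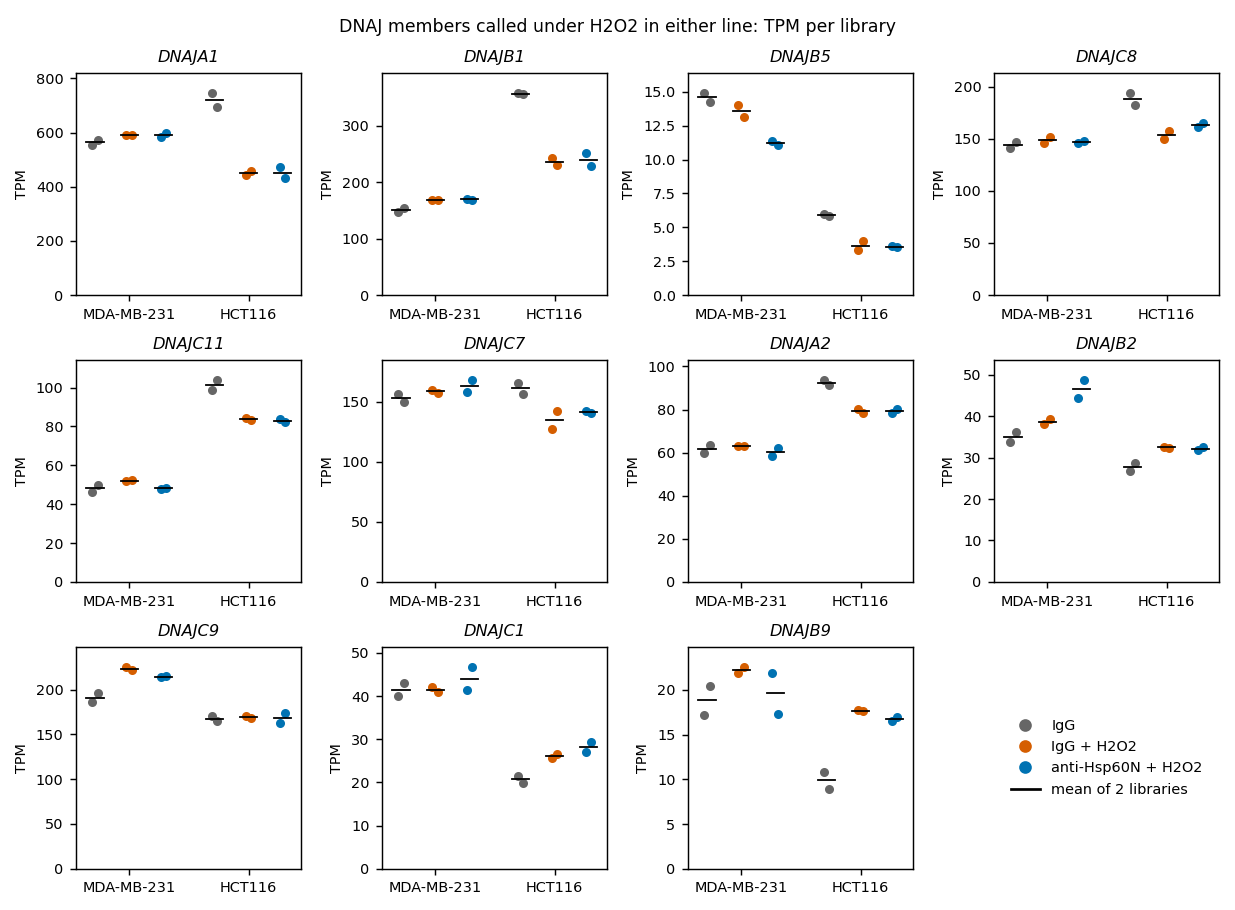
TPM in each of the 12 libraries (points, y axis from 0) and the mean of each pair (bars) for the 11 members that passed the test under H2O2 in either line, in order of their fold change. DNAJA1, DNAJB1 and DNAJB5 step down between IgG and H2O2 in HCT116 and stay down with the antibody, DNAJB9 steps up, and DNAJC9 is raised in MDA-MB-231.

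Some of these genes overlap a neighbor in RefSeq, and the sources used here do not say whether counting used strand. DNAJB1 overlaps TECR, which was lower in HCT116 as well (log2 -0.36, SE 0.05, limma adjusted p = 0.000649), and DNAJC7 overlaps CNP (log2 -0.40, SE 0.05, limma adjusted p = 0.000371). DNAJC11 overlaps THAP3 (log2 -0.21, limma adjusted p = 0.157). How reads were divided between these genes was not tested, so their values carry that uncertainty. No overlapping gene was found for DNAJA1, DNAJA2, DNAJB2, DNAJB5, DNAJB9 or DNAJC8. The neighbors were looked up after the values of the members were seen.

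In MDA-MB-231 the family changed little under H2O2. By limma, 1 of the 39 members was higher and 0 were lower. At an unadjusted p under 0.05 there were 4 (DNAJA3, DNAJB1, DNAJC9 and DNAJC11), beside 2329 of all 13956 genes tested. Of all genes tested, 1.3% were called higher and 1.36% lower. With the TPM as deposited, 181 genes were higher and 190 lower, whereas median-of-ratios scaling gave 154 higher and 279 lower. DNAJC9 stood at 185.95 and 196.37 TPM under IgG and at 225.14 and 222.00 TPM under H2O2 (log2 0.23, SE 0.05, limma adjusted p = 0.0295), without overlap. The call did not hold when any of those 4 libraries was left out (adjusted p = 0.0519 to 0.184), without the filter (adjusted p = 0.0516), after median-of-ratios scaling (adjusted p = 0.0529), with MDA-MB-231 fitted alone (adjusted p = 0.0893) or with a replicate block (adjusted p = 0.0661). DNAJC9 overlaps FAM149B1, which stood at 2.43 to 3.41 TPM in the same 4 libraries (log2 0.20, limma adjusted p = 0.422).

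The remaining 38 members of MDA-MB-231 ranged from -0.12 for DNAJC28, a mitochondrial member, to 0.25 for DNAJC4, and 31 of them lay above 0. Counting DNAJC9, 32 of 39 members lay above 0, against 58.6% of all genes. After median-of-ratios scaling 29 members lay above 0, against 50.1% of all genes, and after quantile normalization 28, against 52.6%. With the TPM as deposited and all libraries, the members' median was 0.07 against 0.03 for all genes. Without the first IgG library these medians were 0.045 and 0, and without the second 0.099 and 0.055. DNAJB1 stood at 146.47 and 154.73 TPM under IgG and at 169.04 and 168.71 TPM under H2O2 (log2 0.16, 95% interval 0.05 to 0.28, limma adjusted p = 0.134). DNAJA1 stood at 555.53 and 571.89 and then at 591.30 and 590.55 TPM (log2 0.07, 95% interval -0.04 to 0.18). Both genes were thus higher in each H2O2 library than in either IgG library of this line, by amounts that did not pass the test. With 2 libraries in each group, this order adds no support to a change.

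The H2O2 changes were set against each other directly, as the change in HCT116 minus that in MDA-MB-231. By limma, 9 of the 39 members differed between the lines, 1 higher and 8 lower in HCT116, where 7.65% of all genes were called higher and 9.72% lower. DNAJB1 had the widest difference (log2 -0.75, SE 0.07, limma adjusted p = 0.000124), followed by DNAJA1 (log2 -0.74, SE 0.07, limma adjusted p = 0.000118). DNAJB5 (log2 -0.48, SE 0.12, limma adjusted p = 0.0211), DNAJC11 (log2 -0.39, SE 0.07, limma adjusted p = 0.00501) and DNAJC8 (log2 -0.33, SE 0.07, limma adjusted p = 0.00868) complete the 5 members of smallest p. The calls of DNAJA1, DNAJB1, DNAJC8 and DNAJC11 held in all alternatives run. The call of DNAJB5 was lost without the first H2O2 library of MDA-MB-231 (adjusted p = 0.0814), its second IgG library (adjusted p = 0.0548) or the first H2O2 library of HCT116 (adjusted p = 0.0679). The other 4, named after their values were seen, were DNAJC7 (-0.31), DNAJA2 (-0.25) and DNAJC9 (-0.21), which were lower, and DNAJB9 (0.55), which was higher. Of 19 alternatives, DNAJC9 lost the call in 14, DNAJB9 in 11, DNAJC7 in 10 and DNAJA2 in 7. All 4 lost it without the first H2O2 library of HCT116. Leaving out single libraries gave between 4 and 9 members, with 4 without the first H2O2 library of either line and 5 without the second H2O2 library of MDA-MB-231.

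**Figure D3:**
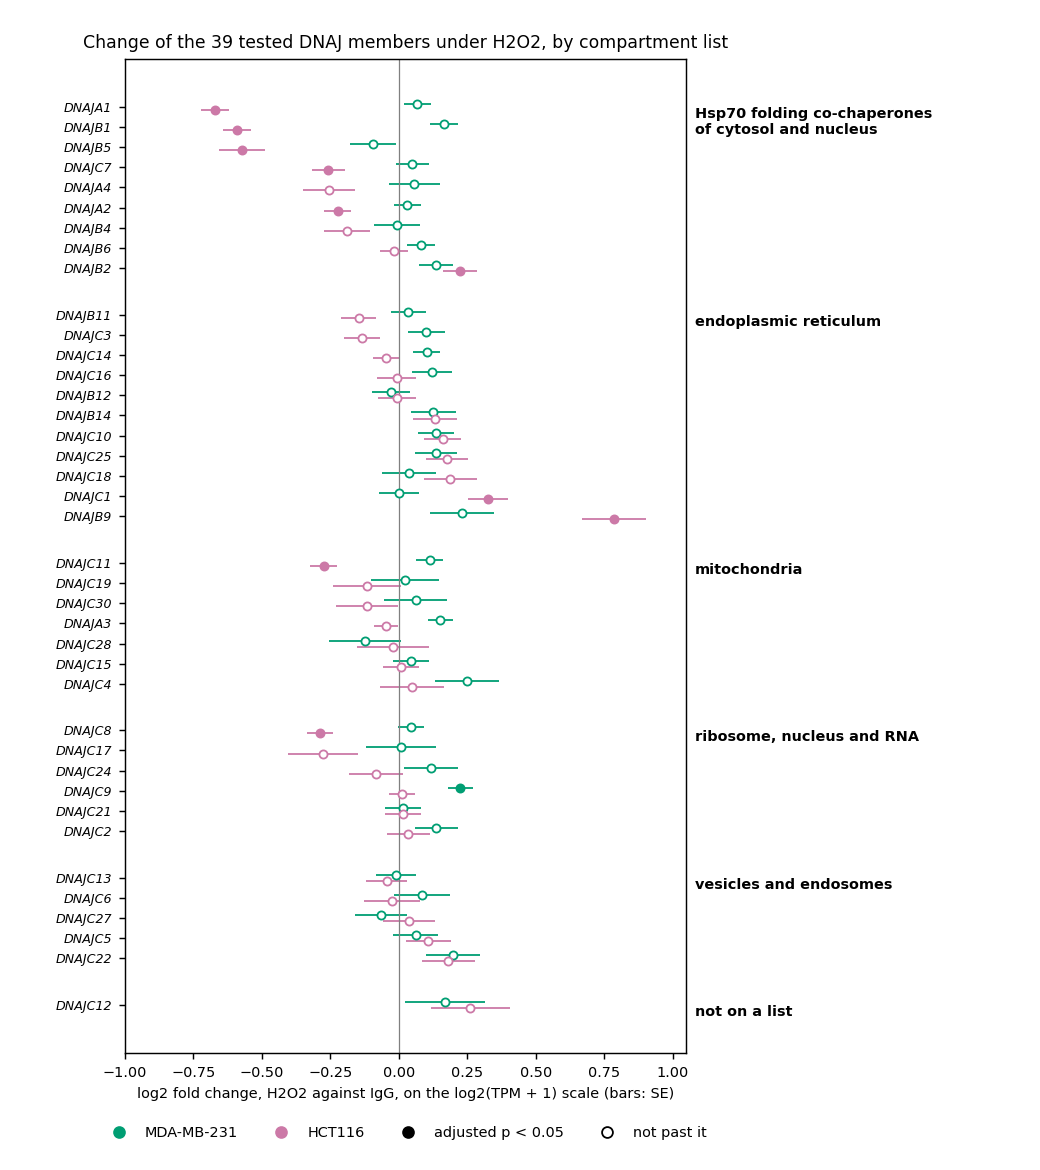
Log2 fold change on the log2(TPM + 1) scale of H2O2 against IgG (x axis, bars for the SE) for the 39 tested members in MDA-MB-231 and HCT116, grouped by compartment list, with filled points past an adjusted p of 0.05. DNAJA1, DNAJB1 and DNAJB5 lie between -0.57 and -0.67 in HCT116, DNAJB9 lies at 0.79, and DNAJC9 is the filled point of MDA-MB-231; DNAJC1, which is on the ER and ribosome lists, is drawn with the ER.

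The Hsp70 genes that the family serves moved in the same comparisons, and their lists were chosen with earlier results of these data known. In HCT116 under H2O2, 3 of 12 tested Hsp70 genes were higher and 6 lower (median log2 fold change -0.20). The shares over all genes tested were 15.4% called higher and 17.5% lower. HSPA8, the constitutive cytosolic Hsp70, stood at 5155 and 5077 TPM under IgG and at 2760 and 2732 TPM under H2O2 (log2 -0.90, SE 0.05, limma adjusted p = 6.44e-07). HSPA1A (log2 -1.20) and HSPA1B (log2 -1.32), inducible Hsp70 genes so alike that the split of reads between them is uncertain, fell as well. HSPA5, which encodes BiP, stood at 578.64 and 539.72 and then at 800.37 and 822.24 TPM (log2 0.54, SE 0.05, limma adjusted p = 2.15e-05). HSPA13 (log2 0.74) and HSPA9, the mitochondrial Hsp70 (log2 0.21, limma adjusted p = 0.00865), also rose, so the cytosolic and the organellar Hsp70 genes named here differed in direction.

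In MDA-MB-231, HSPA1A (log2 0.81, limma adjusted p = 0.000685) and HSPA1B (log2 0.84, limma adjusted p = 0.000232) were higher with H2O2. The third gene of the Hsp70 list called there was HSPA6, a strictly inducible Hsp70 gene, which reached 1 TPM only in the H2O2 and antibody libraries of MDA-MB-231. It passed the filter through those groups alone and so had to differ. HSPA6 stood at 0.58 and 0.61 TPM under IgG and at 2.94 and 2.34 TPM under H2O2 in MDA-MB-231, and was listed at 0 in both H2O2 libraries of HCT116. For HSPA8 the change in MDA-MB-231 was 0.11 (limma adjusted p = 0.299). The difference between the lines passed the test for HSPA1B (log2 -2.16), HSPA1A (log2 -2.01) and HSPA8 (log2 -1.01, SE 0.07, limma adjusted p = 1.08e-05).

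Genes that work beside the J proteins were counted by list in HCT116 under H2O2. There, 15.4% of all genes tested were called higher and 17.5% lower. Of 14 nucleotide exchange factors, which release ADP from Hsp70, 1 was higher and 6 lower (median -0.09). Among them BAG3 (log2 -0.60), HSPH1 (log2 -0.69) and HSPA4 (log2 -0.39) were lower, and GRPEL2, of the mitochondrial matrix, was higher (log2 0.54). Of 13 genes of Hsp90 and of the co-chaperones between Hsp70 and Hsp90, 11 were lower (median -0.26), among them STIP1 (log2 -0.54), FKBP4 (log2 -0.49) and AHSA1 (log2 -0.50). Of 13 tested genes on the list of heat shock factor targets outside the family, 12 were lower (median -0.52). The factor HSF1 itself is on that list and did not pass. The list shares HSPA8, HSPA1A, HSPA1B, HSPH1, BAG3, HSP90AA1, HSPD1 and HSPE1 with the others. HSPA4L, HSPA5, HSPA9, HSP90B1, HYOU1, GRPEL1 and GRPEL2 also stand on more than 1 partner list, so the counts by list are not independent.

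The ER and mitochondrial partner lists had calls in both directions, beside shares of 15.4% higher and 17.5% lower over all genes. Of 16 unfolded protein response genes, 6 were higher, among them HSPA5 and XBP1 (log2 0.81), and 7 lower, among them PDIA4 (log2 -0.41), with a median of 0.00. Of 14 genes of the mitochondrial Hsp70 import motor and chaperonin, 2 were higher and 6 lower, with a median of 0.00. GRPEL2, NFS1 (log2 -0.44) and TIMM23 (log2 -0.26) were among them. The count of 2 higher lies near the share over all genes. HSPD1, which encodes the Hsp60 that the antibody is named for, stood at 1965 and 1861 TPM under IgG and at 1625 and 1749 TPM under H2O2 in HCT116 (log2 -0.18, SE 0.05, limma adjusted p = 0.0147). That call was lost in a fit of HCT116 alone (adjusted p = 0.0805), after quantile normalization (adjusted p = 0.0709), without the first IgG library (adjusted p = 0.0807) or without the first H2O2 library (adjusted p = 0.12). In MDA-MB-231, the gene past the threshold on these partner lists, besides the Hsp70 genes already named, was FKBP5, an Hsp90 co-chaperone (log2 0.42, limma adjusted p = 0.00079).

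The antibody was set against IgG with H2O2 present in both groups. By limma, 0 of the 39 members passed in MDA-MB-231, where 0.0143% of all genes were called, and 0 passed in HCT116, where 0.0215% were. At an unadjusted limma p under 0.05 there were 9 of 39 members in MDA-MB-231, beside 1829 of all 13956 genes tested. In HCT116 there was 1, DNAJC21, a factor of ribosome maturation, beside 720 of the 13956 genes. The smallest adjusted p was 0.244 in MDA-MB-231, for DNAJB2, and 0.92 in HCT116. The median member's 95% interval, which is not adjusted for the number of genes, reached 0.163 log2 to either side. The adjusted test needs larger changes than that, since DNAJB2 at 0.26 and DNAJB5 at -0.26 in MDA-MB-231 did not pass.

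Several members of MDA-MB-231 had values apart from the H2O2 group without passing the test. DNAJB2 stood at 38.09 and 39.26 TPM with H2O2 and at 44.43 and 48.68 TPM with the antibody and H2O2 (log2 0.26, 95% interval 0.12 to 0.40, limma adjusted p = 0.244). DNAJB5 stood at 14.06 and 13.13 and then at 11.34 and 11.04 TPM (log2 -0.26, 95% interval -0.44 to -0.07, limma adjusted p = 0.286). DNAJC10 stood at 40.04 and 41.11 and then at 34.88 and 33.85 TPM (log2 -0.23, 95% interval -0.38 to -0.08, limma adjusted p = 0.279). In each of these 3 genes the libraries of the groups did not overlap. The genes were chosen after their values were seen, so the lack of overlap adds no support to changes that did not pass. In HCT116 the same genes had log2 fold changes of -0.01, -0.03 and 0.00, and the members ranged from -0.24 for DNAJC12 to 0.15 for DNAJC21.

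DNAJA1 and DNAJB1, the members with the widest H2O2 changes below 0 in HCT116, were at nearly the same level with the antibody. DNAJA1 stood at 471.19 and 432.60 TPM there, against 445.20 and 457.71 TPM with H2O2 and IgG (log2 0.00, 95% interval -0.11 to 0.11). DNAJB1 stood at 251.32 and 228.45 TPM, against 242.83 and 230.81 TPM (log2 0.02, 95% interval -0.10 to 0.13). For both genes the libraries of the groups overlapped. HSPD1 had a log2 fold change of 0.08 in HCT116 and -0.07 in MDA-MB-231. The difference between lines of the antibody change gave 0 of 39 members by limma, where 0.0287% of all genes were called. The smallest adjusted p was 0.351. At an unadjusted p under 0.05 there were 4 members, beside 1740 of all 13956 genes tested.

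**Figure D4:**
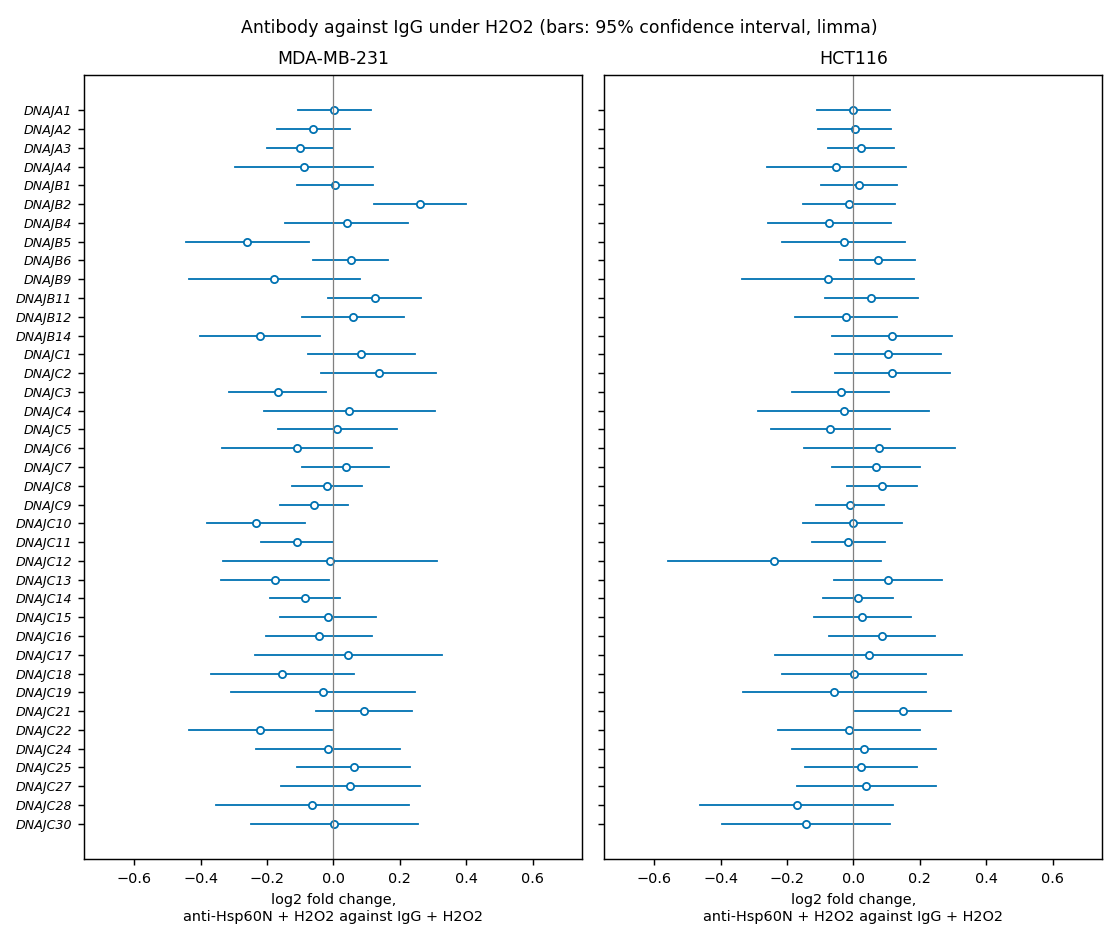
Log2 fold change on the log2(TPM + 1) scale of the antibody with H2O2 against IgG with H2O2 (x axis) for the 39 tested members in MDA-MB-231 and HCT116, with bars for the 95% interval. Every point is open because 0 members passed the test, and the points lie between -0.26 and 0.26 in MDA-MB-231 and between -0.24 and 0.15 in HCT116.

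Against IgG without H2O2, the antibody with H2O2 gave the joint change, in a comparison that shares its IgG libraries with the H2O2 comparison. In MDA-MB-231, 1 member was higher and 1 lower by limma, where 1.5% of all genes were called higher and 1.9% lower. DNAJB2 went from 33.88 and 36.30 TPM to 44.43 and 48.68 TPM (log2 0.40, SE 0.06, limma adjusted p = 0.00646), beside a log2 fold change of 0.14 for H2O2 with IgG. That call was lost without the second antibody library (adjusted p = 0.0728) or in a fit of MDA-MB-231 alone (adjusted p = 0.0878). DNAJB5 went from 14.88 and 14.28 to 11.34 and 11.04 TPM (log2 -0.35, SE 0.08, limma adjusted p = 0.0473), beside -0.09 for H2O2 with IgG, a call that most alternatives lost.

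In HCT116, 4 members were higher and 9 lower in that joint comparison, where 16.8% of all genes were called higher and 17.5% lower. The total of 13 became 8 without the first antibody library. DNAJA1 (-0.67), DNAJB5 (-0.60) and DNAJB1 (-0.57) had the largest decreases, beside -0.67, -0.57 and -0.59 for H2O2 with IgG. DNAJB9 (0.71) and DNAJC1 (0.43) had the largest increases, beside 0.79 and 0.33. DNAJA4 (-0.31, limma adjusted p = 0.0283), DNAJB4 (-0.26, limma adjusted p = 0.033) and DNAJB14, an ER membrane member (0.25, limma adjusted p = 0.0363), passed here and not for H2O2 with IgG. Each of the 3 lost that call without either antibody library (adjusted p = 0.0606 to 0.204), among other alternatives. The difference between those comparisons is the antibody comparison above, in which none of the 3 passed. The members named for this joint comparison were chosen after their values were seen.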

How the data were processed

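Deposited TPM per gene were used; the authors gave them to 2 decimals, in 1 table of 23686 genes and 12 libraries. Tools and builds named by the submitters' processing notes are STAR, RSEM, bcl2fastq 2.20 and hg19, with no role or order. The annotation and strand setting were not stated in the sources used here. TPM keeps no read depth, so no counts were tested. Values were taken as log2(TPM + 1). Genes with at least 1 TPM in at least 2 libraries (13956) entered limma 3.58.1 under R 4.3.3, with trend, on 6 group means over all libraries (6 residual degrees of freedom, 4.63 prior), two-sided, with Benjamini-Hochberg adjustment and a threshold of 0.05. The 9 comparisons were H2O2 against IgG, antibody with H2O2 against H2O2 and against IgG in each line, the differences between lines of the first 2, and the lines under IgG. The fit was tested on simulated data. Members and lists were chosen with earlier results of these data known.

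Named by rule were members past the threshold within a line for H2O2 or antibody, the 5 of smallest p for differences between lines, the 5 highest and 5 lowest between lines, the most abundant of each class, untested or overlapping members, up to 3 partners of smallest p per list, and HSPD1. Alternatives were pseudocounts of 0.1 and 5, no filter, a mean TPM of at least 5, median-of-ratios scaling, quantile normalization, a line fitted alone, a replicate block and leaving out each library. Promoters came from RefSeq (GRCh38.p14), a build other than that of the TPM. Figures used matplotlib 3.10.9 in Python 3.11.15.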

Additional observations from a re-analysis of the deposited data

Results flagged for a closer look

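For 9 members the H2O2 change differed between HCT116 and MDA-MB-231 by a test of the difference itself, limma's interaction of line and H2O2. On the log2 scale the change in HCT116 minus that in MDA-MB-231 was -0.75 for DNAJB1, -0.74 for DNAJA1, -0.48 for DNAJB5, -0.39 for DNAJC11, -0.33 for DNAJC8, -0.31 for DNAJC7, -0.25 for DNAJA2, -0.21 for DNAJC9 and 0.55 for DNAJB9. The adjusted p-values ranged from 0.000118 for DNAJA1 to 0.0469 for DNAJC9. Among all genes tested, 7.65% were called higher and 9.72% lower. Only DNAJA1, DNAJB1, DNAJC8 and DNAJC11 kept the call in every alternative. Of 19 alternatives, DNAJC9 lost it in 14, DNAJB9 in 11, DNAJC7 in 10, DNAJA2 in 7 and DNAJB5 in 3. Groups of 2 libraries are too small to look for single libraries that stand apart.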

How the results depend on the processing

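Of 45 named results on members that passed the test, 29 kept the call in every alternative run and 0 reversed. Of 22 on partners, 19 kept it and 0 reversed. The 29 include every named difference between the lines under IgG, and those were picked as the highest and lowest. DNAJA4 and DNAJC12 among them, and HSPA6 among the partners, had to differ. Partners other than HSPD1 were picked for the smallest p on their list. Neither count therefore tells how often calls hold in general. Leaving out each library in turn moved the number of members called under H2O2 from 1 to between 0 and 1 in MDA-MB-231 and from 10 to between 9 and 11 in HCT116. It moved the joint change from 2 to between 0 and 2 in MDA-MB-231 and from 13 to between 8 and 16 in HCT116, the H2O2 change between lines from 9 to between 4 and 9, and the lines under IgG from 30 to between 29 and 31. The antibody comparisons gave 0 members throughout. For H2O2 in MDA-MB-231 the count was 0 with no filter, with median-of-ratios scaling, with the line alone and with the replicate block. For the joint change there it was 1 with a pseudocount of 0.1, no filter, quantile normalization or the replicate block, and 0 with the line alone. The replicate numbers were not shown to pair the libraries: deviations of same-numbered libraries correlated at 0.012 to 0.164 in MDA-MB-231 and at -0.127 to 0.055 in HCT116. Over all genes, H2O2 in HCT116 gave 4592 calls without a block, 4396 with it and 4794 with the 2 numbers of the H2O2 group exchanged, a setting chosen after seeing the data, and 10 members each time. Where a call was lost the cause was not tested. With 1 library left in a group, that library is assumed to vary like the other groups. Read depth is unknown, so no counting limit can be given.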
